A study of Mus musculus with 4 samples.

Results

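The expression of 5 genes of MHC class II antigen presentation (H2-Aa, H2-Ab1, H2-Eb1, Cd74 and Ciita) and of the 3 genes of complement C1q (C1qa, C1qb and C1qc) was examined in testes of Azin2 KO and WT mice. These 8 genes were taken by name from 18820 genes with a value of their own, and each of the 8 is paired with 1 probe set of the array that names no other gene. Whole testes of mice 3 to 4 months old were profiled on 4 arrays of the Affymetrix Mouse Gene 1.1 ST type, with 2 arrays per genotype and testis RNA from 3 animals pooled on every array. In the Azin2 KO mice, of a mixed background with C57BL/6, both copies of Azin2 hold β-Geo, a lacZ reporter fused to a drug resistance gene, and the study describes these homozygotes as hypomorphic. The Azin2 WT mice have the intact gene, and neither genotype is described as treated. As the mice of each array were pooled, the spread between arrays is that between pools, and the spread between single animals was not measured.

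MHC class II molecules are pairs of an α and a β chain that display peptides from ingested protein to CD4 T cells. They are found chiefly on dendritic cells, B cells and macrophages. Cd74, the invariant chain, holds the groove of new class II molecules until they reach the endosome, and Ciita is the coactivator that switches class II genes on, often after interferon γ. C1q, built of A, B and C chains, binds immune complexes and dying cells, starts the classical complement pathway and is made mainly by tissue macrophages. In the mouse testis, macrophages lie among the Leydig cells and along the tubule wall, and those of the tubule wall are known for a higher class II level.

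The class II genes share a block of promoter elements, the X box bound by the RFX complex and the Y box bound by NF-Y, on which Ciita is assembled. To show this block beside C1q promoters, the bases from 110 to 31 before the transcript start are given for 4 members (RefSeq, GRCm38.p6). The promoters of the other members, Cd74 among them, are not reported here. Capitals mark the X box core GCAAC and the Y box CTGATTGG, and each sequence is read 5′ to 3′ along the transcript.
H2-Aa: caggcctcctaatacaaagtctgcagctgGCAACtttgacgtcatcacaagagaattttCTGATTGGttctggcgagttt
H2-Eb1: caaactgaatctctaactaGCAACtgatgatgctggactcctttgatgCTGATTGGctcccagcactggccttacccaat
C1qb: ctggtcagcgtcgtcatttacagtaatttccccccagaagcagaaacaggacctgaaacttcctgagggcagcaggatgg
C1qc: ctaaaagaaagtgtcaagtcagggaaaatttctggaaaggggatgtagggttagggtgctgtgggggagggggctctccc
The H2-Aa stretch lies at chr17:34287854-34287933 on the minus strand and that of H2-Eb1 at chr17:34305757-34305836 on the plus strand. The C1qb stretch lies at chr4:136886231-136886310 and that of C1qc at chr4:136892945-136893024, both on the minus strand.

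The core of the X box stood 25 bases before the Y box in H2-Aa and 24 bases before it in H2-Eb1. Both strands of every promoter entry, which runs from 250 bases before to 50 bases after a start, were searched for the same letters. GCAAC was found in 35.2% of 32851 entries, CTGATTGG in 4.10%, and GCAAC followed on the same strand by CTGATTGG after 15 to 40 bases in 40 entries (0.122%). Of the 6 other class II chain genes with an entry, this order of both elements was found in H2-Oa and H2-Eb2. Neither set of letters was found in the C1qb or C1qc entry, on either strand. These matches describe letters only, and Ciita binding was not measured.

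No gene of either family passed the thresholds between KO and WT testes. The class II genes lay slightly higher in KO testes, with log2 differences between 0.03 and 0.25 and a median of 0.17, whereas C1qa and C1qb lay lower by 0.22 and 0.15 and C1qc lay higher by 0.05. Over all 18820 genes with a value the median difference was 0.01, and 10654 of them were above 0. Values are log2 RMA signals, in which a difference of 1 is a doubling, and probe sets with different probes cannot be ranked by them. KO was compared with WT by limma over 23099 named probe sets with Benjamini-Hochberg adjustment. At an adjusted p under 0.05, 0 of the 8 members were called, against 0.00433% of all probe sets tested (1 probe set, that of Azin2). At a fold of 1.5 with an unadjusted p under 0.05, 0 of 8 were called, against 0.0823%. The adjusted p of each of the 8 members was 0.9995 from limma.

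Cd74 had a log2 signal of 7.94 and 7.96 in KO testes, against 7.77 and 7.80 in WT testes. Both KO pools lay above both WT pools, and the gap of 0.15 between the genotypes was wider than the differences between replicates of 0.02 in KO and 0.03 in WT testes. The log2 difference was 0.17 (standard error 0.05, 95% confidence interval 0.04 to 0.29, unadjusted p = 0.0176 from limma), a fold of 1.12. It was the only member with an unadjusted p under 0.05. Over all probe sets, 2.14% were higher in KO testes at that p and 1.96% were lower. When each array was left out, the difference ranged between 0.15 and 0.18, while the unadjusted p from limma ranged between 0.0508 and 0.0799.

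H2-Ab1 encodes the β chain of the I-A molecule, and its log2 signal was 8.08 and 8.09 in KO testes, against 7.66 and 8.01 in WT testes. The KO pools were above the WT pools by 0.06 at the nearest, less than the 0.35 between the WT pools. Its log2 difference of 0.25 (standard error 0.12, 95% confidence interval -0.07 to 0.56, unadjusted p = 0.0988 from limma) came to 0.070 when WT replicate 1 was left out and to 0.42 when WT replicate 2 was. H2-Aa, the α chain that pairs with it, was at 7.26 and 7.55 in KO and at 7.37 and 7.21 in WT testes. Here the genotypes overlapped, and the difference of 0.12 (standard error 0.11, unadjusted p = 0.346 from limma) came to -0.024 when KO replicate 2 was left out and to 0.26 when KO replicate 1 was. The chains of one molecule did not vary alike between arrays: H2-Ab1 was lowest in WT replicate 1, and H2-Aa was lowest in WT replicate 2.

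H2-Eb1, the β chain of the I-E molecule, was at 7.15 and 7.24 in KO testes, against 6.94 and 7.10 in WT testes. Both KO pools were above both WT pools, by 0.05 at the nearest, and the log2 difference was 0.18 (standard error 0.08, 95% confidence interval -0.02 to 0.38, unadjusted p = 0.0666 from limma). It was 0.10 without WT replicate 1. H2-Ea, the α chain that would pair with it, is not transcribed in mice of the H2 b haplotype, that of C57BL/6. The H2 haplotype of these mice of mixed background is not given in the sources used here. The H2-Ea signal was 4.36 ± 0.04 (SD, n = 2 pools) in KO and 4.30 ± 0.06 in WT testes. All 4 values were below the medians of their arrays, as were those of the class II genes H2-Oa and H2-Eb2. Ciita was at 5.17 and 5.24 in KO and at 5.22 and 5.14 in WT testes, also below the median of every array, which lay between 6.08 and 6.11. Its difference of 0.03 (standard error 0.06, unadjusted p = 0.650 from limma) came to -0.0099 when KO replicate 2 was left out and to -0.011 when WT replicate 2 was. In all, both KO pools were above both WT pools for 3 of the 5 class II genes and below them for 0, against 20.1% above and 12.3% below among all probe sets tested.

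**Figure D1:**
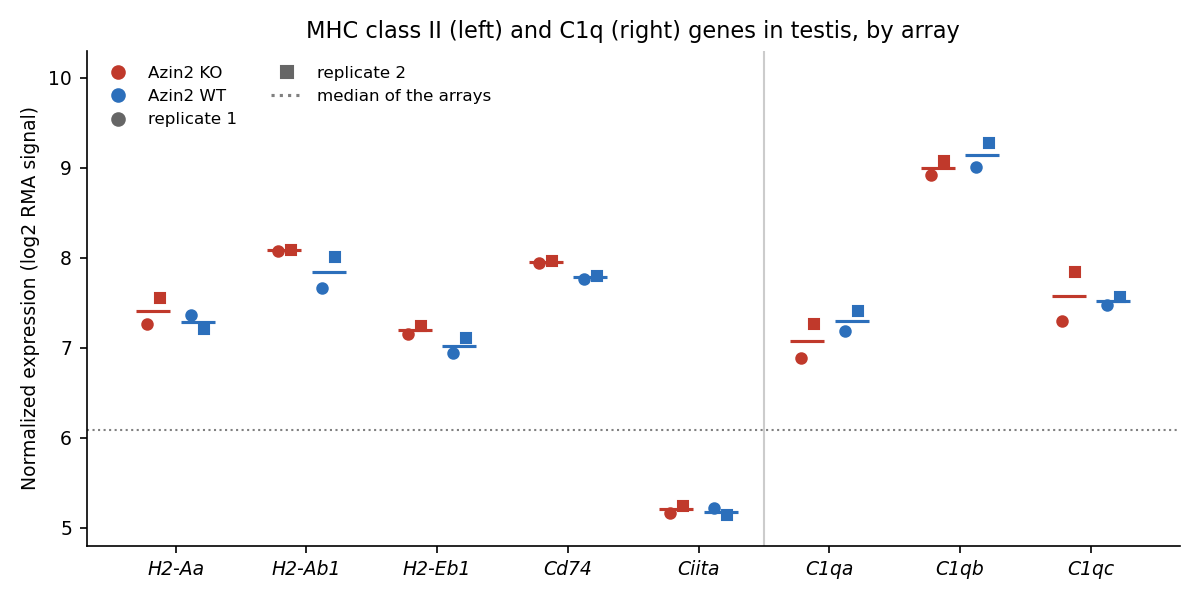
Normalized expression (log2 RMA signal, vertical axis) of the 5 MHC class II and 3 C1q genes. Each point is 1 array (circle, replicate 1; square, replicate 2), with KO in red left of WT in blue, bars are means of 2 arrays and the dotted line is the median of the arrays; the KO and WT points are apart for H2-Ab1, H2-Eb1 and Cd74, overlap for the other 5 genes, and Ciita alone lies below the dotted line.

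The C1q genes overlapped between the genotypes in every case. C1qa, the A chain, was at 6.88 and 7.27 in KO testes, against 7.18 and 7.41 in WT testes. Its lowest value was that of KO replicate 1, and its log2 difference of -0.22 (standard error 0.15, 95% confidence interval -0.61 to 0.16, unadjusted p = 0.198 from limma) was -0.031 without that array and -0.41 without KO replicate 2. C1qb, the B chain, was at 8.92 and 9.07 in KO and at 9.01 and 9.27 in WT testes. The difference of -0.15 (standard error 0.11, 95% confidence interval -0.43 to 0.13, unadjusted p = 0.238 from limma) was -0.012 without WT replicate 2. C1qc, the C chain, was at 7.30 and 7.84 in KO testes, on either side of the WT values of 7.47 and 7.56. With a gap of 0.54 between the KO pools, its difference was 0.05 (standard error 0.18, 95% confidence interval -0.41 to 0.52, unadjusted p = 0.781 from limma), and it came to 0.32 when KO replicate 1 was left out and to -0.22 when KO replicate 2 was.

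The chains of C1q are needed together for the molecule, and their differences within arrays were compared. C1qc minus C1qa was 0.42 and 0.57 in KO testes, against 0.29 and 0.15 in WT testes, so that both KO pools were above both WT pools. For C1qb minus C1qa the values were 2.04 and 1.80 in KO and 1.83 and 1.86 in WT testes, and they overlapped. C1qc minus C1qb overlapped too, at -1.62 and -1.23 in KO and -1.53 and -1.72 in WT testes. These are differences between probe sets, whose own size has no meaning as a ratio of mRNAs, and they were not tested. Among single probe sets, both KO pools were above both WT pools for 20.1% and below them for 12.3%. The share among differences of 2 probe sets was not counted.

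A fold of 1.5 is 0.58 on the log2 scale. With the spread that limma shares between probe sets, the 95% confidence interval lay within a fold of 1.5 in either direction for all 5 class II genes and for C1qb and C1qc, and it passed that size for C1qa. With the spread of each probe set alone (ordinary equal-variance test), this held for 2 of the 8 members, Cd74 and Ciita. Without WT replicate 1 it held for 6 of 8 and without WT replicate 2 for 5 of 8, and C1qc passed that size in both. The interval of Cd74 left out 0 before adjustment, but with an intensity trend in limma its unadjusted p was 0.0534.

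**Figure D2:**
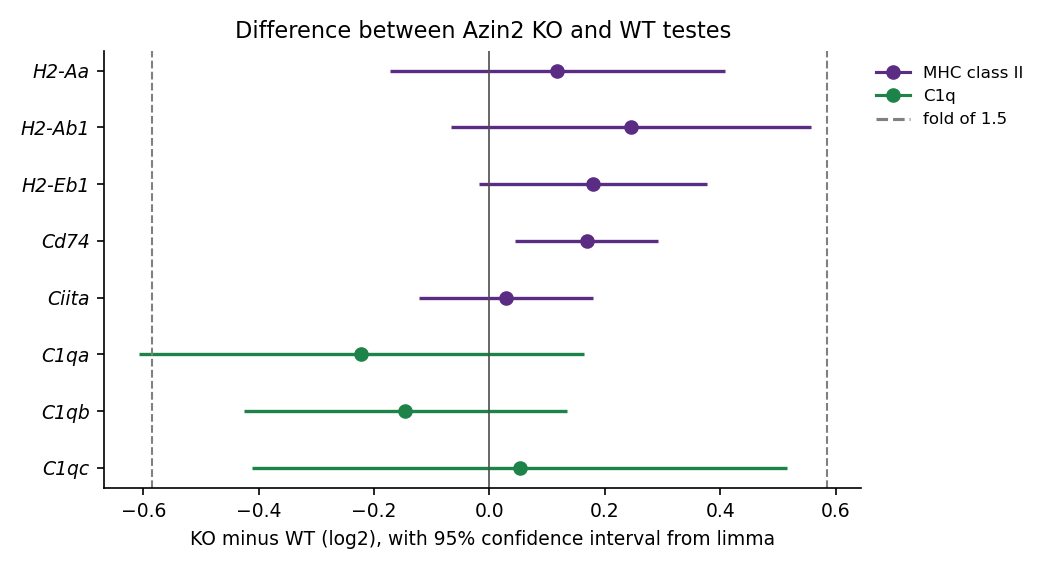
The horizontal axis is the log2 difference, KO minus WT, and each of the 8 genes has its 95% confidence interval from limma; a fold of 1.5 is drawn as dashed lines. The interval of Cd74, from 0.04 to 0.29, lies above 0, and that of C1qa, from -0.61 to 0.16, passes the lower line.

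The class II genes were then set against the C1q genes within each array. The mean of H2-Aa, H2-Ab1, H2-Eb1 and Cd74 was 7.61 and 7.71 in KO testes, against 7.43 and 7.53 in WT testes. The mean of C1qa, C1qb and C1qc was 7.70 and 8.06 in KO and 7.89 and 8.08 in WT testes. Class II minus C1q was thus -0.09 and -0.35 in KO, against -0.45 and -0.55 in WT testes. Both KO pools were above both WT pools, with a mean difference of 0.28 on the log2 scale between -0.22 ± 0.18 in KO and -0.50 ± 0.07 in WT testes (SD, n = 2 pools). It came to 0.15 when KO replicate 1 was left out and to 0.41 when KO replicate 2 was, and 0.25 with Ciita in the class II mean. As the genes were chosen with earlier results of these arrays known, no p is given for this difference. Single probe sets lay above in both KO pools for 20.1%, and the share for such differences of means was not counted.

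The order of the arrays for C1q was set beside that for markers of macrophages. All 3 C1q genes were lowest in KO replicate 1, as were 10 of 16 macrophage markers with a value. This low position was not particular to macrophage markers: all 4 Leydig cell markers with a value and 4 of 6 B cell markers were lowest in KO replicate 1 as well. The share of all genes that were lowest in KO replicate 1 was not counted. Of the 16 macrophage markers, 14 were higher in KO replicate 2 than in KO replicate 1, and 15 were higher in WT replicate 2 than in WT replicate 1. For C1q both counts were 3 of 3, and for H2-Aa, H2-Ab1, H2-Eb1 and Cd74 they were 4 of 4 and 3 of 4. They were 5 of 6 and 3 of 6 for B cell markers and 4 of 4 and 1 of 4 for Leydig cell markers. For T cell markers they were 2 of 6 and 5 of 6. The shares over all genes were not counted for these orders either. Relative to the mean of each gene over the 4 arrays, the mean of the C1q genes was -0.23 and 0.13 in KO and -0.04 and 0.15 in WT testes. That of the macrophage markers was -0.15 and 0.06 in KO and -0.05 and 0.14 in WT testes, and that of the 4 class II genes was 0.04 and 0.14 in KO and -0.14 and -0.04 in WT testes. The Leydig cell markers were at -0.18 and 0.12 in KO and at 0.08 and -0.01 in WT testes.

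Csf1r, the receptor that keeps macrophages alive, was at 7.01 and 7.51 in KO and at 7.24 and 7.76 in WT testes. The lysosomal marker Cd68 was at 6.55 and 6.99 in KO and at 6.95 and 7.10 in WT testes. Both were lowest in KO replicate 1, and neither separated the genotypes. Other markers of the list, Mertk (7.39), Mrc1 (8.78) and Aif1 (10.20), were lowest in WT replicate 1 instead. All of these were chosen after their values were seen. The summed log2 signal of the 16 markers was 108.7 and 112.1 in KO, against 110.4 and 113.3 in WT testes. Of the 16 markers, 5 were below the median of every array. Of all 18820 genes with a value, 10654 had a log2 difference above 0. The 16 markers had 11 below 0 and a median log2 difference of -0.07. The lowest of them was Lyz2, the lysozyme gene of myeloid cells, at 8.73 and 9.03 in KO, against 9.29 and 9.59 in WT testes (log2 difference -0.56, standard error 0.14, unadjusted p = 0.0117 from limma). The highest was Cd14, the lipopolysaccharide coreceptor, at 0.23, with a dim signal below the median of every array. In whole testes fewer macrophages and less RNA per macrophage cannot be told apart, and the part of macrophages, of Leydig cells or of the KO replicate 1 array in the C1q values was not tested.

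**Figure D3:**
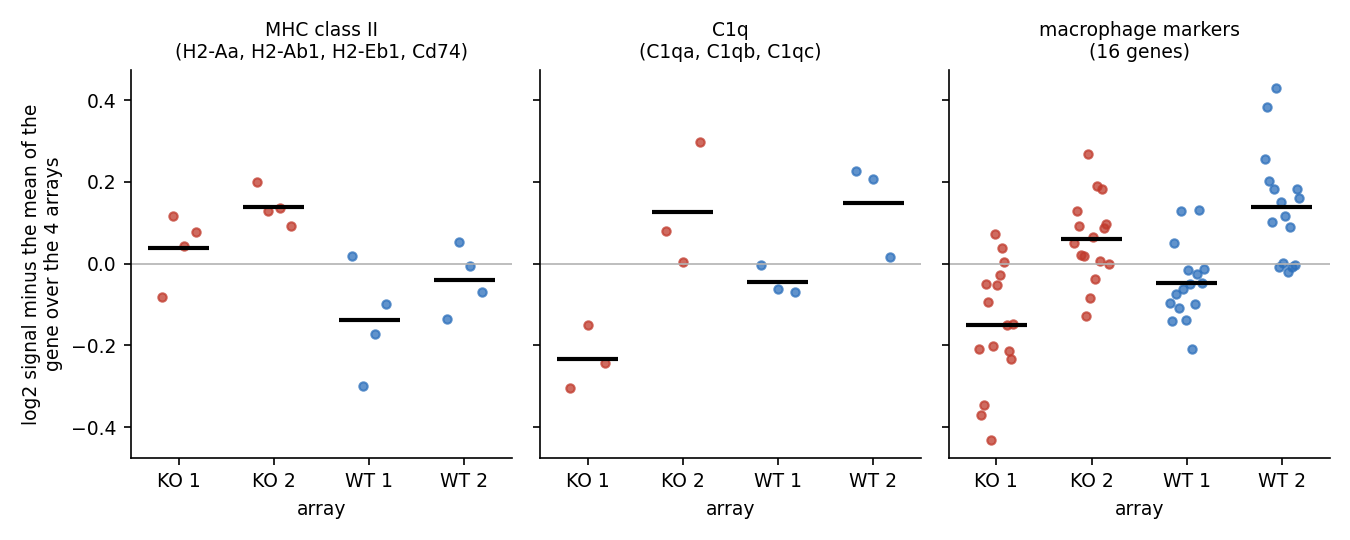
Log2 signal minus the mean of each gene over the 4 arrays (vertical axis) by array, for 4 MHC class II genes, 3 C1q genes and 16 macrophage markers. Each point is 1 gene, with KO arrays in red and WT arrays in blue, and black bars are means; the bars of C1q (-0.23, 0.13, -0.04 and 0.15) and of the macrophage markers (-0.15, 0.06, -0.05 and 0.14) are lowest in KO replicate 1, whereas those of class II are lowest in WT replicate 1.

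Markers of other cells that carry or recognize class II were examined next. Of 9 dendritic cell markers, 5 were below the median of every array. For 1 of the 9, Irf8, both KO pools were below both WT pools, by 0.009 at the nearest, with a log2 difference of -0.20. The highest of the 9 was Flt3, the receptor of a dendritic cell growth factor, at 0.14. Their summed log2 signal was 51.7 and 52.1 in KO, against 51.6 and 51.8 in WT testes. Of 6 B cell markers with a value, 4 were below the median of every array, and they ranged from -0.10 for Pax5 to 0.05 for Cd79b, with sums of 32.9 and 33.3 in KO and 33.3 and 33.4 in WT testes. The 6 T cell markers with a value ranged from -0.04 for Cd2 to 0.12 for Cd3d, with sums of 32.3 and 31.8 in KO and 31.6 and 31.9 in WT testes, and 5 of them were below the median of every array. Both KO pools were above both WT pools for 3 T cell markers and below them for 2 B cell markers. At an unadjusted p under 0.05 from limma, 0 genes of these lists were called, against 2.14% higher and 1.96% lower among all probe sets. Over all probe sets tested the shares without overlap were 20.1% above and 12.3% below. The part of these cells in the class II values was not tested.

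The other genes of the class II pathway had differences around 0. Of 11 genes for peptide loading and further class II chains, 9 had a value, with H2-DMb1 and H2-DMb2 sharing a probe set. They had 3 above and 6 below 0 and a median of -0.03. Of the 9, 0 had an unadjusted p under 0.05 from limma, against 2.14% higher and 1.96% lower among all probe sets tested. The lowest was Ctss, the protease that trims the invariant chain, at 6.29 and 6.35 in KO and at 6.28 and 6.80 in WT testes (log2 difference -0.22). The highest was Marchf1, a ubiquitin ligase that removes class II from the surface, at 0.10. H2-DMa, a chain of the peptide exchanger, was at 7.26 and 7.50 in KO and at 7.57 and 7.30 in WT testes, without a gap between the genotypes. Of 7 genes for the factors that bind class II promoters, 6 had a value, between -0.03 for Creb1 and 0.10 for Rfxap, a subunit of the RFX complex. Both were above the median of every array.

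Interferon γ induces Ciita through JAK and STAT proteins. Of 6 interferon γ pathway genes with a value, of 7 listed, the lowest was Jak2 at -0.06 and the highest was the transcription factor gene Irf1 at 0.13, with a median of 0.02. MHC class I, which presents peptides of the cell itself, had a median of 0.03 over 8 of 9 genes, from -0.04 for H2-K1 to 0.11 for the immunoproteasome subunit gene Psmb8. From limma, 0 genes of these lists, and 0 of the class II promoter factors, had an unadjusted p under 0.05. Among all probe sets tested, 2.14% were higher in KO testes at that p and 1.96% were lower.

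In the complement system, 6 of 8 genes of the classical pathway had a value, with 5 below 0 and a median of -0.08. C1s1, a protease of this pathway, was lowest, at 6.66 and 6.39 in KO, against 6.68 and 7.20 in WT testes (log2 difference -0.42, standard error 0.19, unadjusted p = 0.0814 from limma). Its partner C1ra was at -0.08 and the highest was C2 at 0.07. Both KO pools were below both WT pools for 3 of the 6, against 12.3% of all probe sets tested. The gaps were narrow, at 0.007 for C1ra, 0.02 for C1s1 and 0.03 for C4bp, and C4bp was below the median of every array. Of 13 receptors and regulators with a value, of 15 listed, 10 were below 0 and 2 were lower at an unadjusted p under 0.05 from limma. These were Vsig4, the macrophage receptor of complement C3 fragments, and Cd93, once described as a C1q receptor. Over all probe sets tested, 1.96% were lower at that p, and 0.0823% passed a fold of 1.5 with it in either direction. Of all 18820 genes with a value, 10654 had a log2 difference above 0. Vsig4, which the study had already listed as lower in KO testes, was at 5.89 and 5.64 in KO, against 6.63 and 7.63 in WT testes. Of the 13, it alone passed a fold of 1.5 with an unadjusted p under 0.05 (log2 difference -1.36, standard error 0.33, unadjusted p = 0.00897 from limma). Cd93 was at 6.10 and 6.26 in KO, against 6.37 and 6.36 in WT testes (log2 difference -0.19, unadjusted p = 0.0447 from limma). The highest was Itgam, a subunit of complement receptor CR3, at 0.05.

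**Figure D4:**
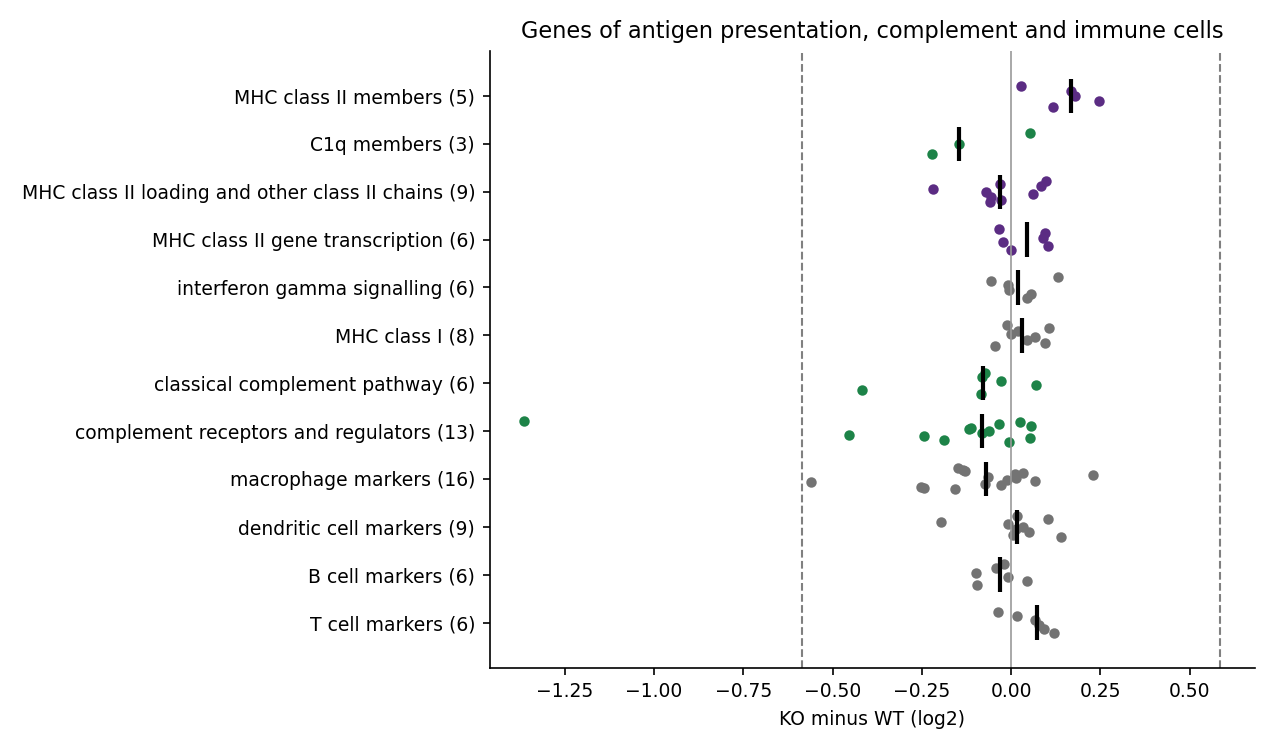
The horizontal axis is the log2 difference, KO minus WT, for the members and for lists of genes for antigen presentation, complement and immune cells. A point stands for 1 gene and a black bar for the median of a list, whose size is printed beside its name, and a fold of 1.5 is drawn as dashed lines; past these lies Vsig4 at -1.36, and the medians of the class II and C1q members are 0.17 and -0.15.

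The members lie in different parts of the genome. The class II H2 genes are together on chromosome 17, Ciita is on chromosome 16 and Cd74 on chromosome 18, whereas C1qa, C1qb and C1qc lie side by side on chromosome 4, the chromosome of Azin2 (RefSeq annotation of GRCm38.p6). Between Azin2 and the C1q cluster lie 146 genes with a value. The 3 nearest genes on the side toward Azin2 were Kdm1a, Tex46 and Lactbl1, with log2 differences of -0.03, -0.15 and 0.12, and those beyond it were Epha8, Zbtb40 and Wnt4, with 0.09, 0.12 and 0.04. None of these 6 had an unadjusted p under 0.05 from limma. Flanking the class II H2 genes, Psmb8, Tap2 and H2-Ob had 0.11, 0.07 and -0.05 on one side, and H2-Eb2, H2-Ea and Btnl2 had -0.07, 0.06 and 0.17 on the other. Btnl2, a butyrophilin-like gene, had a dim signal of 4.73 and 4.74 in KO, against 4.62 and 4.51 in WT testes. It was the one of these with an unadjusted p under 0.05 (0.0363 from limma). Over all probe sets tested, 2.14% were higher in KO testes at that p and 1.96% were lower. For C1q, linkage to the targeted locus and the genotype cannot be told apart in this design.

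The genes whose values over the 4 arrays were most like the members were sought among 11494 genes above the median signal, by the root mean square distance of log2 values centred on the mean of each gene. Nearest to the mean of the 4 class II genes were Rad54l (0.017), Ssc4d (0.018), Igfbp3 (0.020), Tmub1 (0.021) and Sdr42e1 (0.024). Of the 4 class II genes themselves, H2-Eb1 was at 0.024, Cd74 at 0.039, H2-Ab1 at 0.101 and H2-Aa at 0.114, with a median of 0.117 over all genes compared. Nearest to the mean of the C1q genes were Wdr66 (0.012), Egfr (0.016), Nrp1 (0.020), Timm10b (0.021) and Tpra1 (0.022). C1qa, C1qb and C1qc were at 0.061, 0.080 and 0.109 from it, against a median of 0.168. The 5 genes named for each family were nearer to its mean than any of its own genes, but they were taken as the smallest of 11494 distances. The own genes of a family form the mean they are measured from. Neither comparison can therefore show likeness, and a distance over 4 arrays is a description without a test.

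The arrays carried the signals of the labelled tissue and genotype. All 7 spermatid markers, the 4 Leydig cell markers with a value and 6 of 7 Sertoli cell markers were above the median of every array. Azin2 was at 7.36 and 7.14 in KO, against 10.16 and 10.00 in WT testes. Between any 2 arrays, log2 signals of probe sets differed with an SD of 0.132 to 0.157, highest between the 2 KO arrays. The number of arrays limits the precision of all values.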

How the data were processed

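The authors pooled testis RNA, made and amplified cDNA for Affymetrix Mouse Gene 1.1 ST arrays and deposited log2 signals per probe set. The submitters' processing notes name RMA (background correction, normalization between arrays, summarization of probes) and Partek 6.13.1224. The genome build and annotation version are not given in the sources used here. RMA compresses differences of dim probe sets.

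Gene names came from GEO's annotation of the platform, brought up to date through gene identifiers. The table holds 35556 probe sets, 21218 with 1 symbol, 1881 with several and 12457 unnamed here. A gene took its probe set of highest mean. The deposited values, unfiltered, were fitted with limma 3.58.1 in R 4.3.3 (lmFit, eBayes; KO minus WT) over the 23099 named probe sets, with Benjamini-Hochberg adjustment. A call was an adjusted p under 0.05, or at the study's thresholds, a fold of 1.5 at a p under 0.05. The study's methods name ANOVA or Student's test for its data in general and Transcriptome Analysis Control for the arrays, without saying which test gave the array p-values. The fit was tested on simulated data. Where nothing else is said, n is 2 pools per genotype, and p-values measure the spread between pools. Python 3.11.15 with matplotlib 3.10.9 drew the figures.

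The members and the gene lists were chosen with earlier results of these data known. Beside the members, the text names the highest and lowest gene of each list, genes past the study's thresholds, up to 3 neighbours on each side of a gene cluster and the 5 genes nearest in pattern, and it says where others were chosen after their values were seen (Cd93, C1ra, H2-DMa, H2-Ea, Csf1r and Cd68 among them). The settings varied were eBayes (intensity trend, with or without robust fitting), the test (ordinary equal-variance), scaling (quantile, median centring), the probe sets (dim ones left out, unnamed ones added), a block for the replicate number, and the arrays, each left out once.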

Additional observations from a re-analysis of the deposited data

How the results depend on the processing

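No member passed the thresholds under any of the 12 alternatives. Cd74, H2-Ab1 and H2-Eb1 stayed above 0 and C1qa and C1qb below 0 in all 12, while the sign turned for H2-Aa (-0.024 without KO replicate 2), Ciita (-0.0099 without KO replicate 2, -0.011 without WT replicate 2) and C1qc (-0.22 without KO replicate 2). With each array left out, the log2 difference ranged from -0.024 to 0.26 for H2-Aa, from -0.011 to 0.068 for Ciita and from -0.22 to 0.32 for C1qc. Ciita had no value once dim probe sets were left out, and each member has 1 probe set, so that averaging probe sets was no alternative. By the ordinary equal-variance test, 6 probe sets were past both the fold of 1.5 and the unadjusted p of 0.05 in place of 19, and 0 an adjusted p of 0.05 in place of 1. With every probe set of the table these counts were 127 and 0, and with each array left out they ranged from 29 to 69 and from 0 to 2. The lone array of a genotype was then assumed to vary like those of the other. Which members had an unadjusted p under 0.05 varied, while 0 had an adjusted one. Cd74 had it by the ordinary test (0.00867), and from limma with quantile scaling (0.0158) and with median centring (0.0143). The same held with dim probe sets left out (0.0232) and with every probe set of the table (0.0234). Its unadjusted p was not under 0.05 with an intensity trend (0.0534), with robust fitting (0.0509) or with any array left out. H2-Eb1 reached it with quantile scaling (0.0450), with median centring (0.0462) and without WT replicate 2 (0.0257), and H2-Ab1 without WT replicate 2 (0.00283). H2-Aa reached it without KO replicate 1 (0.0433), C1qa without KO replicate 2 (0.0187), C1qb without WT replicate 1 (0.0375) and C1qc without KO replicate 1 (0.0103) and, with the sign turned, without KO replicate 2 (0.0407). The replicate numbers do not pair the arrays by any label, and deviations of same-numbered arrays had a correlation of -0.08 across probe sets. With a replicate block, 24 probe sets were past the same fold and unadjusted p, 1 passed an adjusted p of 0.05, and no member was called, with unadjusted p values of 0.0438 for Cd74, 0.0415 for H2-Eb1 and 0.0315 for C1qa. The causes of these changes were not tested, beyond the fewer arrays or the more probe sets that the settings hold.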
